A study of Homo sapiens with 2 samples.

Results

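BAZ2A, MYBBP1A, CHD4 and ELOA are protein-coding genes whose proteins act on the nucleolus, on chromatin or on transcription. Their RNA was examined in a RIP-seq experiment (RNA immunoprecipitation followed by sequencing) in ARP1 cells, a long-established line from human multiple myeloma, for which the labels name no treatment. RNA recovered with an antibody against SFRS8 (SFSWAP), a regulator of pre-mRNA splicing, formed 1 library (IP), and RNA taken without antibody formed 1 library (Input, called control below). The peaks of the 4 genes were taken by gene symbol from the deposited list, which gave 5 of its 236 peaks, 2 in BAZ2A and 1 in each of the other genes. The genes were selected on earlier results of these data, among them the numbers of IP and control reads, so their ratios are a description and were not tested.

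Both libraries come from the same cell line, and the labels name neither a separate culture nor a repeat for either. The labels' protocol text describes a pull-down with the SFRS8 antibody and also an incubation with an antibody against m6A, a methylated adenosine, and does not say to which library the second step applied. The header of the list does not name the libraries either. The column of counts without a prefix was read as IP and the column with the prefix CTL as control, and the direction of every ratio rests on this reading.

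BAZ2A, also called TIP5, is the large subunit of the nucleolar remodelling complex NoRC, which with the ATPase SMARCA5 keeps part of the ribosomal RNA (rRNA) gene copies silent. MYBBP1A is a nucleolar protein that binds the transcription factor MYB and takes part in rRNA synthesis and in its repression. CHD4 is the helicase and ATPase subunit of NuRD, a complex that joins nucleosome remodelling to histone deacetylation. ELOA is the active subunit of Elongin, which with ELOB and ELOC speeds elongation by RNA polymerase II. In plasma cells and myeloma, where protein output is high, rRNA synthesis and transcription are both under heavy demand.

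The name "nucleolar and chromatin regulators" covers the 4 genes only in part. In the deposited annotation, BAZ2A and MYBBP1A carried the term nucleolus, which 33 of 195 annotated genes with a peak (16.9%) carried. BAZ2A and CHD4 carried the term chromatin, shared by 25 of the 195 genes. ELOA carried neither term and was annotated to the elongin complex. The term nucleoplasm was common to all 4 genes and to 69 genes in all (35.4%). The deposited annotation also gave RNA binding to BAZ2A, MYBBP1A and ELOA, as it did to 42.1% of annotated genes.

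The 5 peaks were small in reads and narrow. They held 85 IP reads and 94 control reads over 4010 bases, which was 0.704% of the 12068 IP reads and 0.108% of the 87259 control reads in all listed peaks. The total depth of each library is unknown, and no scaling between the libraries was applied. The ratio of a peak is its IP reads divided by its control reads. A ratio below 1 therefore does not mean depletion. Each ratio carries an exact Clopper-Pearson 95% interval, computed from the share of its reads that came from the IP library. This interval covers only the counting error of independent reads. Reads copied by PCR are not independent molecules, so the interval may be too narrow. With 1 library per group there was no replicate check.

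BAZ2A had a pair of peaks on the minus strand of chromosome 12 (GRCh38), 2795 bases apart, both inside the gene (ENSG00000076108, 56595596 to 56636816). The upstream peak, nearer the 5′ end of the gene, ran from 56609716 to 56610575 and had 13 IP and 21 control reads. Its ratio was 0.619 (0.285 to 1.30). The downstream peak ran from 56605846 to 56606920 and had 29 IP and 36 control reads, the most in either library among the 5 peaks. Its ratio was 0.806 (0.476 to 1.35). Both BAZ2A peaks had more control than IP reads, and each interval contained the other peak's ratio. Summed over both peaks, BAZ2A had 42 IP and 57 control reads and a ratio of 0.737 (0.483 to 1.12). BAZ2A was among 15 genes with a symbol that had exactly 2 peaks, and no other gene was listed for either of its peaks.

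MYBBP1A (ENSG00000132382) had a peak on the minus strand of chromosome 17, spanning 4539511 to 4539940, in which 11 IP reads and 2 control reads were counted. The ratio of 5.50 (1.20 to 51.1) was the highest of the 5 peaks and rank 14 of the 236. This rank depends in part on the floor of 3 that stood in for 0 control reads. By that floor LRRC59, with 13 IP and 0 control reads, came below MYBBP1A at rank 19. The interval of MYBBP1A was also the widest of the 5, because it rests on 2 control reads. No listed peak had fewer than 11 IP reads, and 28 peaks had exactly that number. A listed peak with 2 control reads could therefore not have a ratio below 5.50, and MYBBP1A sat on this lower limit.

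CHD4 (ENSG00000111642) had a peak on the minus strand of chromosome 12, spanning 6580936 to 6581580, in which 14 IP and 11 control reads were counted. The ratio was 1.27 (0.537 to 3.10), rank 36. The IP reads were the more numerous here, but the interval reached well below 1.

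ELOA (ENSG00000011007) had the only peak of the 5 on the plus strand, on chromosome 1, spanning 23751251 to 23752250. It had 18 IP and 24 control reads and a ratio of 0.750 (0.384 to 1.44), rank 48. ELOA thus lay between the BAZ2A peaks in ratio, and no other gene was listed for its peak.

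**Figure D1:**
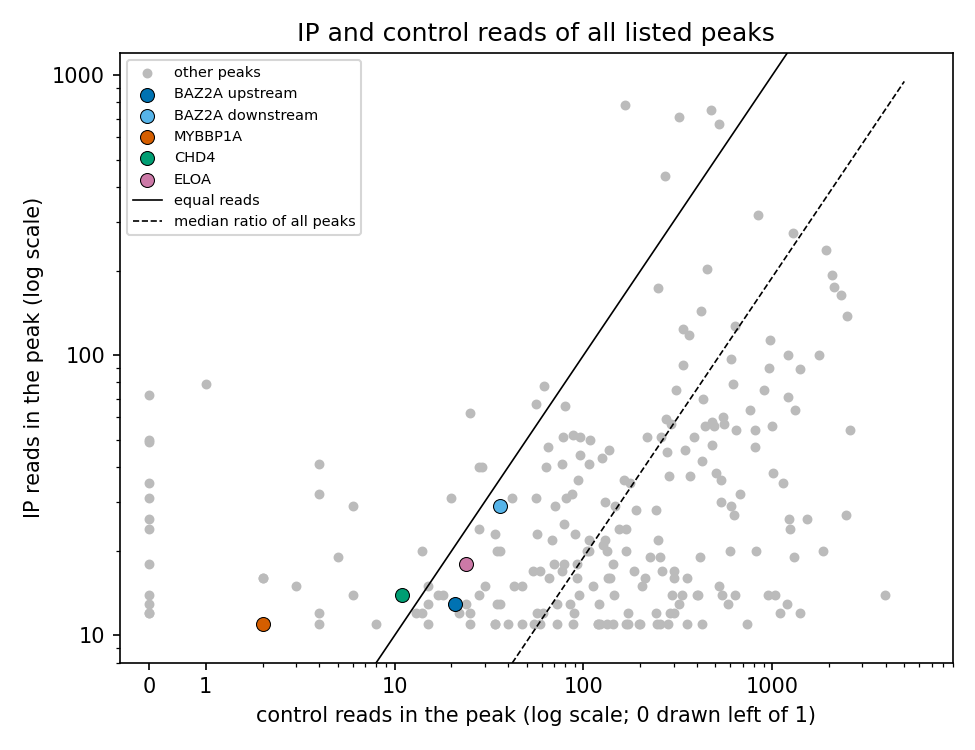
IP reads (vertical axis, log scale) against control reads (horizontal axis, log scale, with 0 drawn left of 1) in each of the 236 listed peaks; coloured points are the 5 peaks of BAZ2A, MYBBP1A, CHD4 and ELOA, the solid line marks equal reads and the dashed line the median ratio of 0.190. The 5 peaks lie at 11 to 29 IP reads and 2 to 36 control reads, all above the dashed line, and MYBBP1A lies on the lower edge of the cloud at 11 IP reads.

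In order of ratio the peaks ran from MYBBP1A through CHD4, the downstream BAZ2A peak and ELOA to the upstream BAZ2A peak. The intervals of neighbours in this order overlapped in every case. The highest ratio was 8.88 times the lowest, but without MYBBP1A the other 4 peaks differed by 2.06 times. Per kilobase of peak, IP reads varied less than control reads. IP reads per kilobase ran from 15.1 in the upstream BAZ2A peak to 27.0 in the downstream one, a range of 1.78 times. Control reads per kilobase ran from 4.65 in MYBBP1A to 33.5 in the downstream BAZ2A peak, a range of 7.20 times, or 1.96 times without MYBBP1A. The spread in ratio among the 5 peaks thus came mostly from the control reads of MYBBP1A.

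IP reads outnumbered control reads in 2 of the 5 peaks, those of MYBBP1A and CHD4, against 16.1% of all 236 peaks. Only for MYBBP1A was the whole interval of the ratio above 1, against 11.4% of all peaks. The interval was wholly above the median of all peaks, 0.190, in each of the 5, against 36.4% of all peaks. These counts describe genes selected on the same reads, and nothing was read from them.

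The control reads of the 5 peaks were few. The median listed peak had 145 control reads, and the 5 peaks had at most 36. Of the 55 listed peaks with no more than 36 control reads, 43 had a ratio of at least 0.619, the lowest of the 5. Of the 181 peaks with more control reads, 13 did. Most of the 43 could not have fallen below 0.619, because the smallest listed IP count, 11, already exceeds that share of their control reads. The 5 peaks are also among the 43 and set the cutoff, so nothing was read from this contrast. With at least 11 IP reads in every listed peak, the lowest ratio that a peak could have with as many control reads was 0.524 for the upstream BAZ2A peak, 0.306 for the downstream one, 1 for CHD4 and 0.458 for ELOA. The downstream BAZ2A peak stood farthest above its limit. Whether the number of reads needed for listing sets the place of these genes in the order was not tested.

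The IP reads per kilobase of the 5 peaks lay near the middle of the list. Their median was 21.7 IP reads per kilobase, against 16.1 over all peaks, and the upper quartile of all peaks was 30.1. The control reads per kilobase lay low, with a median of 24 against 62.8 over all peaks. ELOA, with 18.0 IP and 24 control reads per kilobase, lay near the upstream BAZ2A peak, with 15.1 and 24.4, and below the downstream BAZ2A peak, with 27.0 and 33.5, on both scales.

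The order of the 5 peaks among all peaks turned with the measure. By ratio they lay at percentile 76.7 (upstream BAZ2A), 80.9 (downstream BAZ2A), 94.5 (MYBBP1A), 85.2 (CHD4) and 80.1 (ELOA). Set only against peaks whose control reads were within 5-fold of their own, MYBBP1A lay at percentile 61.5 of 13 peaks and CHD4 at 69.6 of 46. On that basis the downstream BAZ2A peak lay at 83.8 of 105 peaks. Each peak has its own reference set here, so these percentiles are not ranked against each other. By the score in the authors' deposited table all 5 fell in the lower part of the list, from percentile 11 for MYBBP1A to 35.6 for the downstream BAZ2A peak. The score in the authors' deposited table was 46.4 for that BAZ2A peak, 34.7 for ELOA, 25.8 for CHD4, 23.3 for the upstream BAZ2A peak and 20.9 for MYBBP1A. The median score over all peaks in the authors' deposited table was 79.1.

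**Figure D2:**
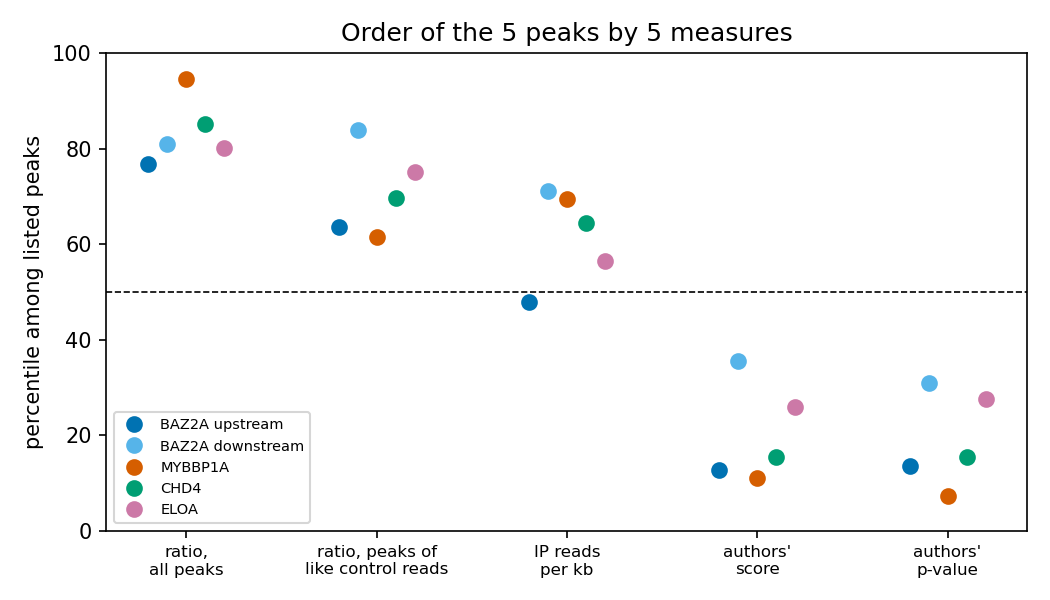
Percentile of each of the 5 peaks among the listed peaks (vertical axis, 0 to 100, with a dashed line at the middle) by 5 measures: the ratio over all peaks, the ratio among peaks of like control reads, IP reads per kilobase, the authors' score and the authors' p-value. By ratio the points lie from 76.7 to 94.5, and by the authors' score from 11 to 35.6.

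The p-values of the 5 peaks stood in the order of their IP reads. In the authors' deposited table the smallest of the 5 p-values was 3.67e-18, for the downstream BAZ2A peak, followed by 6.44e-15 for ELOA. The largest was 0.000108, for MYBBP1A, with an adjusted p-value of 0.000577 in the authors' deposited table. MYBBP1A thus had the highest ratio and the weakest p-value of the 5. The authors' deposited table also gives a score for the control in each peak. It was positive for 8 of the 236 peaks, among them MYBBP1A at 7.05, and negative for the others of the 5, from -0.113 in CHD4 to -9.62 in the downstream BAZ2A peak. The sources used here do not say how either score was computed.

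The peaks took up small parts of their genes, and the parts differed. Positions are given as the distance of the peak's centre from the 5′ end, in percent of the gene's length with introns. The MYBBP1A peak lay at 95.0% and ended 614 bases before the 3′ end of the gene. The CHD4 peak lay at 74.9% and the downstream BAZ2A peak at 73.8%, about 10 kb from the 3′ end in each case (10854 and 10250 bases). The upstream BAZ2A peak lay at 64.7%. The ELOA peak, at 45.5%, was the only one centred nearer to the 5′ than to the 3′ end of its gene, 8096 bases from the start and 9809 bases from the end. With the gene spans of RefSeq in place of those in the list, the CHD4 peak lay at 70.0% and the others moved by less. Exon positions were not used here, so the peaks are not assigned to exons, introns or untranslated regions.

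**Figure D3:**
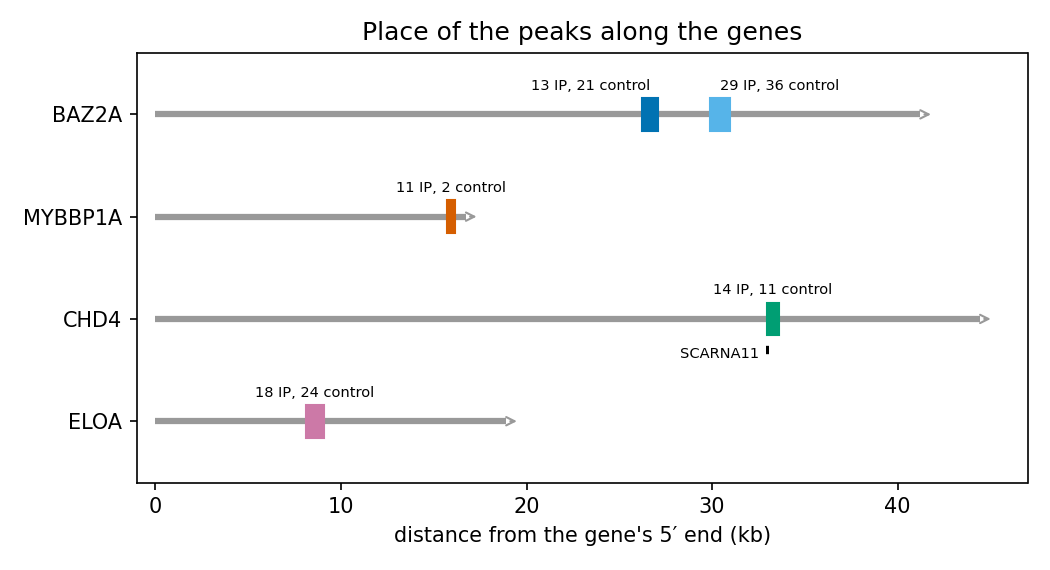
Place of the 5 peaks (coloured boxes, to scale) along BAZ2A, MYBBP1A, CHD4 and ELOA (grey lines with arrows pointing to the 3′ end), with the distance from the gene's 5′ end in kb on the horizontal axis, the IP and control reads above each box, and SCARNA11 as a black mark below CHD4. The MYBBP1A peak lies close to the 3′ end, the ELOA peak near the middle, and SCARNA11 at the 5′ edge of the CHD4 peak.

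The widths of the 5 peaks ran from 430 bases in MYBBP1A to 1075 bases in the downstream BAZ2A peak, with a median of 860 against 2085 over all peaks. They covered from 1.45% of CHD4 to 5.29% of ELOA. Narrow peaks had higher ratios in the list as a whole. The 80 peaks no wider than 1075 bases had a median ratio of 0.353, and the 156 wider peaks had a median of 0.151. Of the narrow peaks 29 had a ratio of at least 0.619, as had 27 of the wider ones.

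The CHD4 peak was the only one of the 5 listed with further genes. The first of them, ENSG00000285238, has no symbol in the list, is typed there as protein-coding and spans 6556886 to 6607367. By position this span covers most of CHD4 and most of NOP2, an rRNA methyltransferase gene whose RefSeq span lies 12644 bases from the peak. The other, ENSG00000251898, is typed as a scaRNA (small Cajal body RNA, a class of guide RNA that directs modification of spliceosomal RNAs) and lies from 6581474 to 6581609. By position it is SCARNA11 of the RefSeq table (6581473 to 6581609). The peak shared 107 bases with it by the list's coordinates, or 78.7% of the scaRNA gene and 16.6% of the peak. SCARNA11 lay at the 5′ edge of the peak in the direction of CHD4 and ran 29 bases past it by the RefSeq span. On the opposite strand, RefSeq places the long non-coding gene CHD4-AS1, which covers the whole peak. Reads per peak do not tell CHD4, the unnamed gene and SCARNA11 apart, so the 14 IP reads of this peak cannot be given to CHD4 alone. The list's counts were kept by strand. Its plus-strand NDUFB10 peak had 15 IP and 43 control reads, although it spans the minus-strand RPS2 peak with 56 and 998. Whether any reads of CHD4-AS1 still entered the count of the CHD4 peak was not tested.

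Overlap with such small RNA genes was seen elsewhere in the list. By RefSeq position and without regard to strand, 17 of the 236 peaks (7.20%) overlapped a small nucleolar RNA or scaRNA gene. Of these, 8 lay above 0.190, and the median of the 17 was 0.114. The CHD4 peak was second among them, after the peak of the translation initiation factor gene EIF1AX, which overlapped SCARNA9L with 15 IP and 3 control reads (5.00, 1.41 to 26.9). The other scaRNA overlaps were SCARNA10 in NCAPD2, a condensin subunit gene (0.316), and SCARNA12 in PHB2, a prohibitin gene (0.215), both named after their values were seen. In the deposited list the CHD4 peak was the only one listed with a scaRNA or small nucleolar RNA gene.

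The other peaks of the 4 genes lay clear of neighbouring genes. SPNS2, a sphingolipid transporter gene, shares 132 bases with the 3′ end of MYBBP1A by RefSeq spans and lies 475 bases from the peak. RBMS2, an RNA-binding protein gene, shares 598 bases with the 3′ end of BAZ2A, 9652 bases from the nearer peak. ELOA-AS1, a long non-coding gene on the opposite strand, lies 8131 bases past the ELOA peak. None of the 5 peaks overlapped a RefSeq window around a gene start, as did 15 of the 236 peaks (6.36%).

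Some other genes of the same complexes and families also had peaks. On 7 lists of complexes and families, 9 of 192 genes had a peak, the 4 genes and 5 others, and 4 of those 5 had a strongest peak above the median ratio of all peaks. Over all 199 genes with a symbol, 48.7% did. The 4 genes are among the 9 by selection. The share of all human genes with a peak was not computed, so these counts and those by list are not called low or high. Absence from the list does not show that a gene's RNA was not recovered, since its expression was not measured here.

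Among 21 genes of NoRC and related remodelling complexes and of rRNA gene silencing, BAZ2A and MYBBP1A had a peak, and SMARCA5, BAZ1B and the others had none in the list. Of 24 genes of the RNA polymerase I machinery, UBTF had a peak. UBTF, the architectural factor of active rRNA genes, had 40 IP and 29 control reads on chromosome 17 (1.38, 0.834 to 2.31), a ratio near that of CHD4. Of 43 genes of nucleolar proteins and rRNA processing, MKI67 had a peak besides MYBBP1A. MKI67, the gene of the proliferation antigen Ki-67, which in interphase lies in the nucleolus, had 204 IP and 450 control reads (0.453, 0.382 to 0.536).

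Of 18 NuRD genes and of 10 CHD family genes, CHD4 alone had a peak in the list. Of 48 bromodomain and other chromatin remodelling genes, ARID1A, a subunit of the SWI/SNF remodelling complex, had a peak with 15 IP and 15 control reads (1, 0.456 to 2.20). Of 33 genes of Elongin and its partners, 3 had a peak. Besides ELOA these were NELFCD, a subunit of the pausing factor NELF, with 32 IP and 87 control reads (0.368, 0.237 to 0.557), and ELL2, an elongation factor of plasma cells, with 12 and 289 (0.0415, 0.0212 to 0.0737). The interval of ELL2 lay wholly below that of ELOA, and both act on elongation by RNA polymerase II.

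**Figure D4:**
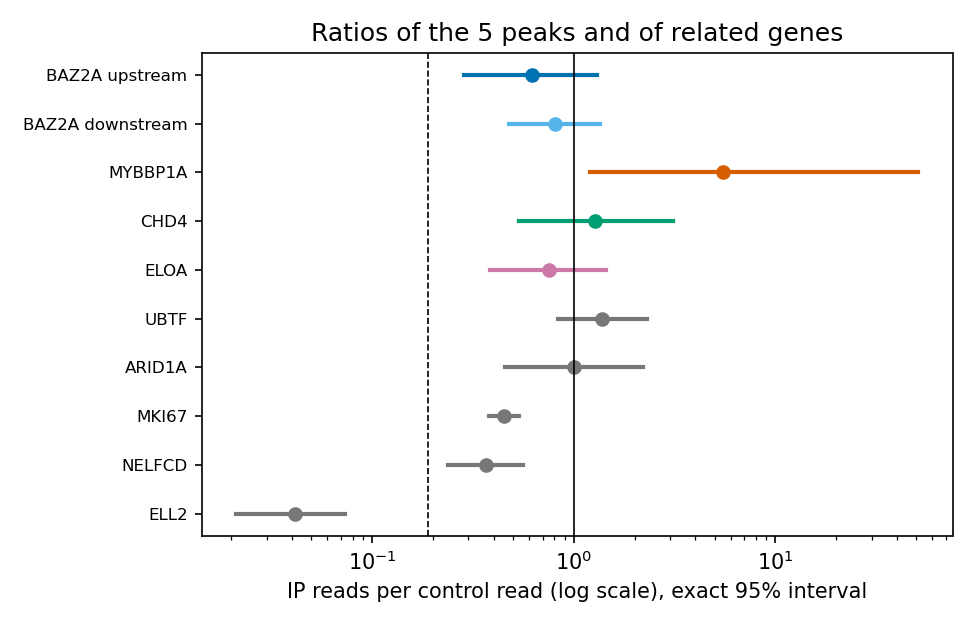
IP reads per control read (horizontal axis, log scale) with exact 95% intervals of counting error for the 5 peaks (coloured) and for the other genes of the 7 lists with a peak (grey); the solid line marks equal reads and the dashed line the median of all peaks, 0.190. The intervals of the 5 peaks lie above the dashed line, that of MYBBP1A also above 1, and ELL2 at 0.0415 lies below it.

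Other genes with the deposited terms of the 4 genes were more often below than above 0.190 for nucleolus and nucleoplasm. For chromatin they were more often above it. Over all 199 genes with a symbol, 97 (48.7%) had a strongest peak above 0.190, and the counts by term were not tested against this share. Among the other 31 genes with the term nucleolus, 10 had a strongest peak above 0.190, and the median of the 31 was 0.0939. The other 23 genes with the term chromatin had a median of 0.220, with 16 above 0.190. Among the other 65 genes with the term nucleoplasm the median was 0.148, and 27 lay above 0.190. The median over all 199 genes with a symbol was 0.174. The ratios of BAZ2A, MYBBP1A, CHD4 and ELOA were higher than the medians of the genes that share their terms. The 4 genes were selected with their reads known, so nothing was read from this difference.

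The peaks nearest in ratio, with likeness taken as the difference of log2 ratios over the 2 libraries, belonged to genes of many kinds. For MYBBP1A they were EIF1AX (difference 0.14), the mRNA-binding protein gene SERBP1 (0.19) and LRRC59 (0.34), which had 0 control reads and was placed by a floor of 3. For CHD4 they were the kinase gene CSK (0.02), a peak of the integrin gene ITGB7 (0.09) and AFAP1L2 (0.11). For ELOA they were TNIP1 (0.02), EIF3C (0.03) and the nonsense-mediated decay gene UPF2 (0.05), and UPF2 was also near the downstream BAZ2A peak, with LMAN2 and TUFM (0.03 each). For the upstream BAZ2A peak they were ARHGDIA (0.04), ERP29 (0.07) and HIST2H2AA3 (0.08).

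Cell type markers were looked up in the same list. The marker lists were chosen with earlier results of these data known, so the counts do not check the cell line's identity. Of 15 plasma cell and myeloma markers 6 had a peak, namely XBP1 (100 IP and 1760 control reads), JCHAIN (14 and 3971), MZB1 (23 and 90), MAF (51 and 218), CCND2 (13 and 1202) and ITGB7, with 3 peaks. The plasma cell and myeloma markers without a peak were SDC1, TNFRSF17, IRF4, PRDM1, CD38, SLAMF7, FCRL5, CD27 and NSD2. None of the 6 T cell, 6 myeloid, 5 erythroid and 6 stromal markers had a peak in the list. A list of peaks does not measure the expression of markers without a peak.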

How the data were processed

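The deposited peak list was made on GRCh38. FastQC 0.11.5 and HOMER were used, per the submitters' processing notes. Which aligner and peak caller made it is not given in the sources used here. Deposited counts are whole reads per peak without normalization. The deposited scores, p-values and adjusted p-values of peaks are the authors' own. Another 2 columns of reads per kilobase were not used, and per-kilobase values were computed from counts and widths. Rows of the same peak were merged, giving 236 peaks from 279 rows.

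Ratios are IP over control reads, against a floor of 3 where the control had 0. Intervals (exact Clopper-Pearson, SciPy 1.17.1, Python 3.11.15) were checked on simulated independent reads. Such reads follow the model of the interval, so this checks the computation and not the effect of PCR copies or of differences between libraries. With 1 library per group no test between groups was made. Genes named are the 4 genes, genes at their peaks, the 3 nearest peaks in ratio, and list genes with a peak. Members and lists were chosen with earlier results of these data known. Symbols were matched through RefSeq GRCh38.p14 synonyms. Peak sequences were not used here.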

Additional observations from a re-analysis of the deposited data

How the results depend on the processing

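Adding 0.5 reads to both libraries left all 5 ratios within their counting intervals. Scaling both libraries to the same sum of reads over all peaks raised ratios to 4.48 (upstream BAZ2A), 5.82 (downstream BAZ2A), 39.8 (MYBBP1A), 9.20 (CHD4) and 5.42 (ELOA). Both BAZ2A peaks and ELOA thus passed from below 1 to above it. Scaling on the 221 peaks outside the rRNA interval of chromosome 21 gave 5.88, 7.65, 52.2, 12.1 and 7.12 in the same order. Both scalings multiply every ratio by the same factor (7.23 and 9.50), which keeps the order of peaks. The side of 1 on which a ratio falls therefore depends on the unknown depth.

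In the same order of upstream BAZ2A, downstream BAZ2A, MYBBP1A, CHD4 and ELOA, percentiles were 12.7, 35.6, 11, 15.3 and 25.8 by the authors' score, 13.6, 30.9, 7.20, 15.3 and 27.5 by their p-value, and 47.9, 71.2, 69.5, 64.4 and 56.4 by IP reads per kilobase. Among peaks of protein-coding genes the downstream BAZ2A peak moved to 86.1 and CHD4 to 90.9. Among peaks with at least 10 control reads, percentiles were 85.8, 90.5, 95.3 and 89.6 for upstream BAZ2A, downstream BAZ2A, CHD4 and ELOA, and MYBBP1A was not in that set. Among peaks of like control reads MYBBP1A moved to 61.5 and CHD4 to 69.6. The change with the reference set follows from which peaks it holds, and the cause of the change with score, p-value and IP density was not tested.

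With each gene split into 3 equal parts, every peak stayed in the same part by either of its edges and by RefSeq spans, the last chosen after seeing the data. All list counts were the same with peaks centred inside the gene, and the number of peaks with more IP than control reads, 38, became 36 at an adjusted p-value of at most 0.01 and 27 at a ratio above 2. No paired analysis was possible because each group had 1 library. The limit of depth is the number of reads, 2 control reads in MYBBP1A being the fewest.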
